A study of Ovis aries with 7 samples.

Results

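The NMDA receptor subunit genes were followed across the cell classes of the sheep striatum and between OVT73 transgenic and control animals. The family holds 7 genes (GRIN1, GRIN2A, GRIN2B, GRIN2C, GRIN2D, GRIN3A and GRIN3B), taken by symbol from the 26479 features of the deposited count tables. Each symbol matched 1 Ensembl feature, which was ENSOARG00020023258 for GRIN1, ENSOARG00020014809 for GRIN2A, ENSOARG00020002958 for GRIN2B and ENSOARG00020003755 for GRIN2C. The features were ENSOARG00020016127 for GRIN2D, ENSOARG00020002876 for GRIN3A and ENSOARG00020013299 for GRIN3B. Nuclei came from the striatum of 12 sheep aged 5 years and were sequenced as 7 droplet libraries. The 3 OVT73 libraries each pooled 2 sheep that carry a full-length human huntingtin cDNA with an expanded polyglutamine tract, driven by a segment of the human huntingtin promoter. The study describes the transgene's expression as moderate and the line as free of striatal cell loss and overt motor symptoms at this age, and treats it as a model of an early stage of the disease. Wild-type sheep made up the 4 control libraries, of which control 1 and control 2 held 1 sheep each and control 3 and control 4 pooled 2 sheep each.

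NMDA receptors are glutamate-gated cation channels that pass calcium when glutamate and a co-agonist bind while the membrane is depolarised. Every functional receptor holds the glycine-binding GluN1 subunit, the product of GRIN1, together with glutamate-binding GluN2 subunits (GRIN2A to GRIN2D) or glycine-binding GluN3 subunits (GRIN3A and GRIN3B), and the GluN2 subunit sets how fast the current decays and which scaffold proteins are bound. In the striatum these receptors carry part of the cortical and thalamic drive onto medium spiny neurons (MSNs), and excess current through them has long been studied as a cause of neuronal death in Huntington's disease.

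The libraries held 20887378 to 70473426 unique molecular identifiers (UMIs) in 3277 to 8815 barcodes, and 32599 nuclei were kept. No pair of libraries shared more than 20 barcodes. Clusters were drawn without the ionotropic glutamate receptor genes and named "-like" from marker genes, which gave 11 classes with 29677 nuclei. These were 2596 D1 MSN-like, 2051 D2 MSN-like, 322 eccentric MSN-like, 278 PV/Th, 108 SST/NPY and 60 cholinergic interneuron-like nuclei, 1292 neuroblast-like, 2119 astrocyte-like, 2912 oligodendrocyte precursor cell (OPC)-like, 15149 oligodendrocyte-like and 2790 microglia-like nuclei. A further 2922 nuclei were in clusters left unnamed. The direct-pathway neuropeptide gene TAC1 had 232 CPM in D1 MSN-like and 12.2 CPM in D2 MSN-like nuclei, and the D2 receptor gene DRD2 had 2.14 and 43.0 CPM. Median UMIs per nucleus were 14961 to 22951 in the 6 neuron classes and 1183 to 3595.5 in neuroblast-like nuclei and the 4 glial classes. Levels below are UMIs of the gene per 1000000 UMIs of the class in a library (CPM), as mean ± SD over 7 libraries, and are descriptions without a test. Intronic reads were counted and the lengths of transcripts and introns were not used here, so that UMIs of different subunits were not read as relative transcript numbers. Between classes and groups, the same subunit, the same ratio or the same share of the family's UMIs was compared. Where different subunits stand side by side within a class, the order is of UMIs counted and not of transcripts.

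The 7 genes took 342270 UMIs in the nuclei kept. GRIN2B held 84.3% of them with 288564 UMIs and GRIN2A 11.4% with 39004. GRIN2D had 6052 UMIs, GRIN1 5574 and GRIN3A 2959, whereas GRIN2C had 94 and GRIN3B 23. D1 and D2 MSN-like nuclei together supplied 80.5% of the GRIN2B UMIs, 75.3% of those of GRIN1 and 70.8% of those of GRIN2D. For GRIN2A this share was 49.0% and for GRIN3A 8.99%, so that most GRIN3A UMIs lay outside the principal MSN classes. Unnamed clusters held 19.8% of the GRIN2A UMIs. A cluster among them, led by TANC1, joined the D2 class at a coarser clustering, so that GRIN2A was not placed mainly inside or outside these classes.

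**Figure D1:**
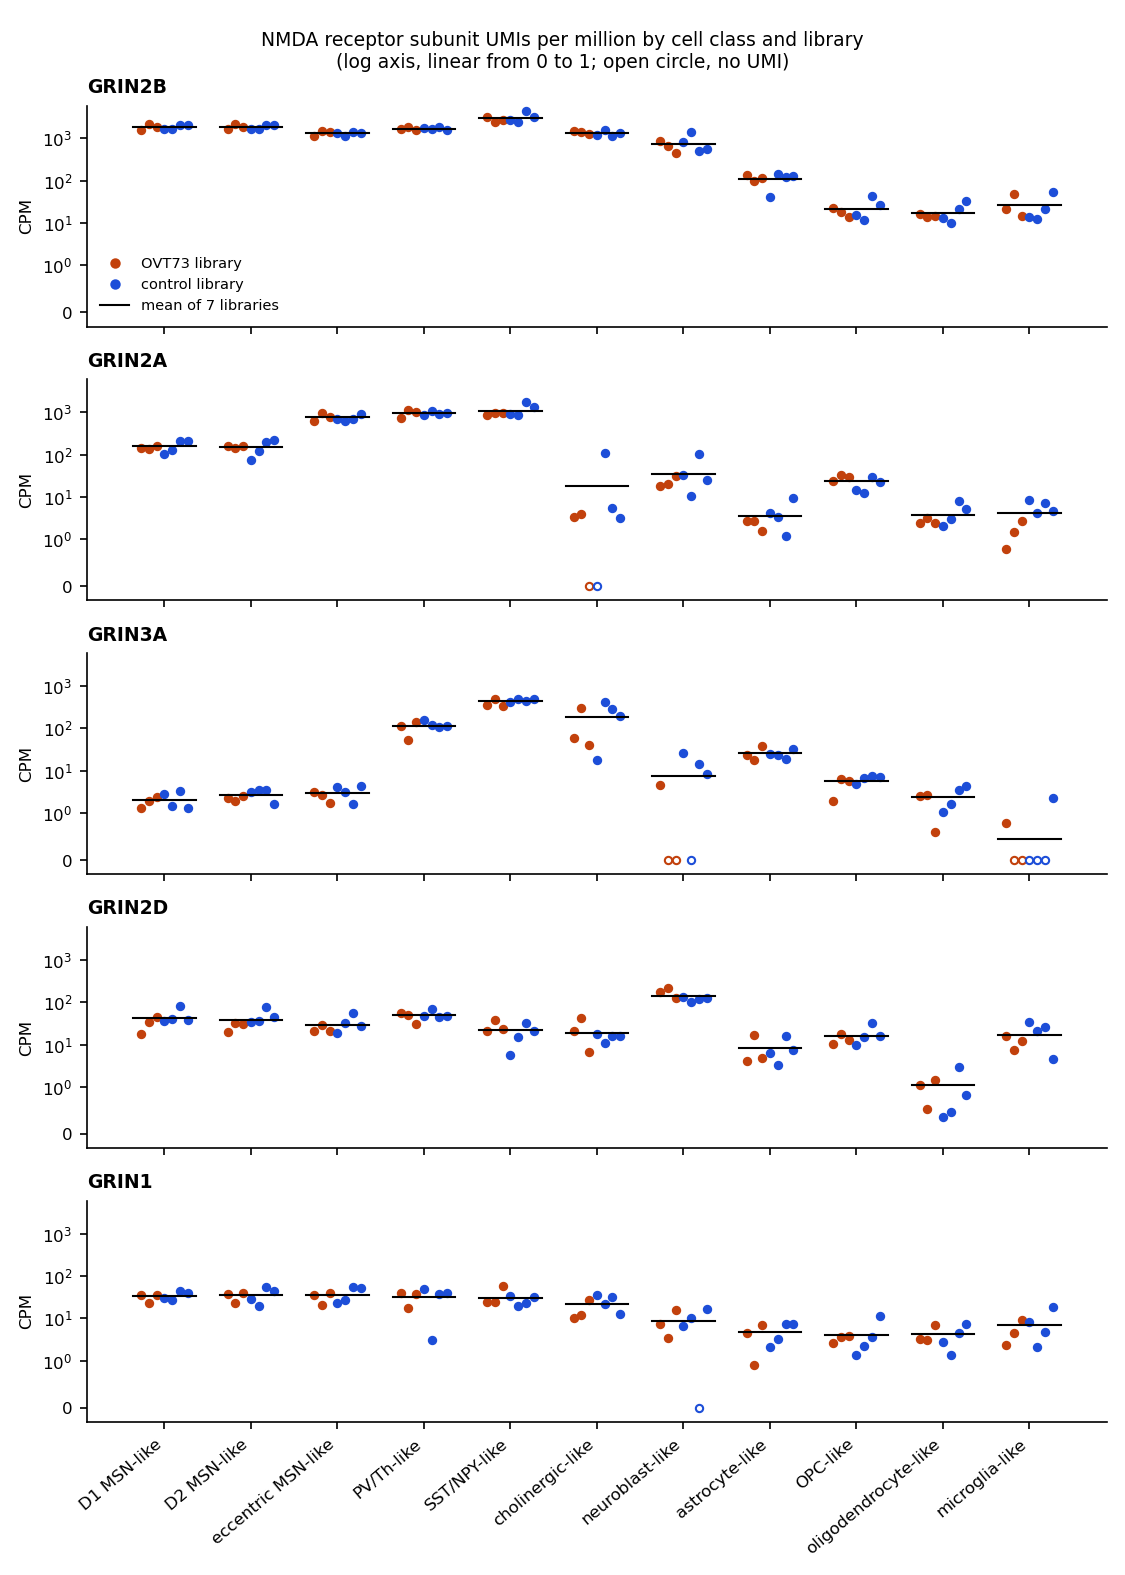
Level of each NMDA receptor subunit (vertical axis, CPM, logarithmic above 1 and linear from 0 to 1) in each of 11 cell classes, with 1 point per library coloured by group and a line at the mean of 7 libraries. Open circles are libraries without a UMI. GRIN2B is above 1000 CPM in all 6 neuron classes, GRIN3A has its highest mean in SST/NPY interneuron-like and GRIN2D in neuroblast-like nuclei, and GRIN2A is above 600 CPM in eccentric MSN-like, PV/Th and SST/NPY interneuron-like nuclei.

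GRIN1, the obligatory subunit, had overlapping levels in the 6 neuron classes. Its level was 36.3 ± 14.1 CPM in eccentric, 35.1 ± 12.3 in D2 and 33.6 ± 7.38 in D1 MSN-like nuclei (SD, n = 7). PV/Th interneuron-like nuclei had 32.2 ± 15.9 CPM, SST/NPY 31.0 ± 12.7 and cholinergic 21.8 ± 10.6. Neighbouring classes in this order all had overlapping ranges over libraries. Neuroblast-like nuclei followed with 8.63 ± 6.22 CPM, and the 4 glial classes had 4.10 to 7.11 CPM. Thinned to 1000 UMIs, 3.43% of D1 MSN-like nuclei had a GRIN1 UMI (52.3% unthinned) against 0.492% of oligodendrocyte-like nuclei (0.799% unthinned), the largest class, and 0.702% of microglia-like nuclei (0.968% unthinned). Oligodendrocytes are themselves known to carry some NMDA receptors, so that their share was used as a comparison and not as a measure of free RNA. The unnamed cluster led by NPY (391 nuclei, median 1711 UMIs), named here after its values were seen, had a higher mean than the neuron classes, at 109.9 ± 46.9 CPM (64.6 to 192 over 7 libraries) from 78 UMIs. It had 2435 CPM of SST, and markers of oligodendrocytes and of cholinergic interneurons were raised in it beside those of SST/NPY interneurons.

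GRIN2B, the subunit of slowly decaying receptors and the main GluN2 subunit of young forebrain neurons, was the family's most counted gene in 10 of the 11 named classes. The exception was the OPC-like class, with 284 GRIN2A and 243 GRIN2B UMIs. GRIN2A UMIs outnumbered GRIN2B UMIs there in the OVT73 libraries and in no control library. SST/NPY interneuron-like nuclei had the highest level with 3036 ± 718 CPM (SD, n = 7), and all 7 libraries of this class lay above all 7 of the next. D2 MSN-like nuclei had 1909 ± 229 CPM, D1 1874 ± 257 and PV/Th interneuron-like 1701 ± 105, with overlapping ranges. Cholinergic (1337 ± 171 CPM) and eccentric MSN-like (1334 ± 152 CPM) nuclei could not be separated either. The neuroblast-like class had 759 ± 329 CPM, overlapped with the eccentric class and lay above the astrocyte-like range in all 7 libraries. In D1 MSN-like nuclei the GRIN2B level was 1543, 2229.6 and 1870.3 CPM in OVT73 libraries 1, 2 and 3, and 1649.8, 1691, 2094 and 2040.1 CPM in control libraries 1 to 4. The lowest and the highest library were thus both OVT73. After thinning to 1000 UMIs, 82.7% of D1 MSN-like, 88.9% of SST/NPY interneuron-like and 42.8% of neuroblast-like nuclei had a GRIN2B UMI (99.9%, 100% and 45.4% unthinned).

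Glial GRIN2B was low, and astrocyte-like nuclei stood above the rest of the glia. Their level was 112 ± 34.01 CPM against 26.6 ± 17.3 in microglia-like, 21.7 ± 10.8 in OPC-like and 17.3 ± 7.58 CPM in oligodendrocyte-like nuclei (SD, n = 7). It was higher than in microglia-like nuclei in 7 of 7 libraries, although the ranges over libraries overlapped. Thinned shares of nuclei with a GRIN2B UMI were 10.2% in astrocyte-like and 2.24%, 2.12% and 1.59% in microglia-, OPC- and oligodendrocyte-like nuclei (19.9%, 3.08%, 5.60% and 3.17% unthinned). Astrocyte-like nuclei also had the highest level of MSN markers among the glia. The GRIN2B ranges of the other 3 classes overlapped, so that these classes were not ordered by GRIN2B. Summed over 9 MSN markers, the level was 1609 CPM in astrocyte-like nuclei (1284 to 1778 over libraries) and 532, 425 and 287 CPM in OPC-, oligodendrocyte- and microglia-like nuclei, against 7330 CPM in D1 MSN-like nuclei. Per 100 UMIs of these markers there were 25.1 GRIN2B UMIs in D1 MSN-like, 7.16 in astrocyte-like, 3.77 in OPC-like, 3.91 in oligodendrocyte-like and 8.58 in microglia-like nuclei. Neuroblast-like nuclei had 5252 CPM of the same markers (4153 to 6595 over libraries), closer to the MSNs than to the glia, and 14.1 GRIN2B UMIs per 100 marker UMIs. The part of free or neighbouring neuronal RNA in the glial and neuroblast-like GRIN2B was not tested.

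GRIN2A, whose receptors deactivate fastest and gain ground as forebrain neurons mature, divided the neurons. SST/NPY (1097 ± 353 CPM) and PV/Th (957 ± 135 CPM) interneuron-like and eccentric MSN-like nuclei (759 ± 133 CPM; SD, n = 7) formed an upper range. The first had the higher level in 4 of 7 libraries, so that it could not be ordered against PV/Th. D1 and D2 MSN-like nuclei had 157 ± 41.9 and 154 ± 46.5 CPM, and every library of the eccentric class lay above every library of both. The eccentric class had 637, 980.3 and 769 CPM in the OVT73 libraries and 689, 636, 705 and 899.5 CPM in control libraries 1 to 4, and the groups overlapped. Thinned shares of nuclei with a GRIN2A UMI were 61.1% in SST/NPY, 59.4% in PV/Th, 50.6% in eccentric and 14.0% in D1 MSN-like nuclei (97.2%, 98.9%, 98.4% and 77.6% unthinned). Oligodendrocyte-like nuclei had 0.343% (0.667% unthinned).

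Within the D1 class the GRIN2A level differed by the kind of control library. It was 103 and 129 CPM in control 1 and control 2, which held 1 sheep each, and 214 and 212 CPM in the pooled controls 3 and 4. The 3 OVT73 libraries had 145, 137 and 158 CPM and lay between these pairs. D2 MSN-like nuclei showed the same layout, with 75.2 and 124 CPM in the single-sheep controls, 195 and 218 CPM in the pooled controls, and 156, 146 and 161 CPM in OVT73. Sheep and pooling cannot be told apart among 4 control libraries.

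Cholinergic interneuron-like nuclei, the acetylcholine-releasing cells of the striatum, had GRIN2B without much GRIN2A. The class held 1874 GRIN2B UMIs and 14 GRIN2A UMIs over 60 nuclei. Of these 14, control 2 supplied 10, and 9 of them were in 1 nucleus without a UMI of CHAT or SLC5A7, the genes of choline acetyltransferase and the choline transporter. The other libraries had 0 or 1 UMI each. Without control 2 the pooled level was 3.06 CPM from 4 UMIs, against 10.0 CPM from all 7 libraries. After thinning, 1 of 57 nuclei had a UMI (1.75%, exact 95% interval 0.0444 to 9.39%).

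GRIN2D, which forms receptors with little magnesium block and very slow decay and is best known from immature neurons and interneurons, was highest in neuroblast-like nuclei. Its level there was 142 ± 36.9 CPM (SD, n = 7), and all 7 libraries lay above the PV/Th interneuron-like range (49.4 ± 11.5 CPM). In neuroblast-like nuclei the OVT73 libraries had 171, 211 and 129 CPM and the controls 135, 103, 118 and 128 CPM. D1 (42.0 ± 20.02 CPM), D2 (38.9 ± 17.8) and eccentric MSN-like nuclei (29.3 ± 12.9) came next with overlapping ranges, then SST/NPY (22.0 ± 10.52) and cholinergic (18.8 ± 11.7) interneuron-like nuclei. Microglia-like (17.1 ± 10.2 CPM) and OPC-like nuclei (16.3 ± 7.63 CPM) overlapped with the latter classes, while oligodendrocyte-like nuclei had 1.11 ± 0.928 CPM. The thinned share with a GRIN2D UMI was 14.3% in neuroblast-like, 4.24% in D1 MSN-like, 1.74% in OPC-like, 1.62% in microglia-like and 0.0968% in oligodendrocyte-like nuclei (17.8%, 53.4%, 5.67%, 2.37% and 0.238% unthinned).

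GRIN3A, a subunit that lowers calcium permeability and holds back synapse maturation, was highest in interneurons. SST/NPY interneuron-like nuclei had 436 ± 67.6 CPM, with 358, 488 and 336 CPM in OVT73 and 422, 498, 448 and 502 CPM in control libraries. PV/Th interneuron-like nuclei had 117 ± 33.4 CPM and D1, D2 and eccentric MSN-like nuclei 2.08 ± 0.793, 2.64 ± 0.752 and 2.97 ± 1.06 CPM (SD, n = 7). Thinned shares of nuclei with a GRIN3A UMI were 24.1% in SST/NPY, 12.9% in PV/Th and 0.270% in D1 MSN-like nuclei, against 0.223% in oligodendrocyte-like nuclei (94.4%, 61.5%, 4.97% and 0.508% unthinned). The exact 95% intervals of the last pair overlapped, at 0.108 to 0.555% and 0.151 to 0.319%. Microglia-like nuclei had 1 nucleus with a UMI among 2280 (0.0439%).

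The cholinergic GRIN3A level of 189 ± 157 CPM rested on few nuclei. Control 2 had 39 UMIs, all in the nucleus that also held the 9 GRIN2A UMIs, and control 3 had 43 of its 53 UMIs in 1 nucleus, which did carry CHAT and SLC5A7 UMIs. In OVT73 2 and control 4, by contrast, 8 of 9 and 7 of 7 nuclei had a UMI.

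Astrocyte-like nuclei held GRIN3A at 25.9 ± 7.29 CPM (SD, n = 7), above the 5.72 ± 1.89 CPM of OPC-like and 2.34 ± 1.37 CPM of oligodendrocyte-like nuclei. The transcript was concentrated in the cluster led by SLC1A2, the glial glutamate transporter. Pooled over libraries, this cluster had 37.6 CPM in 909 nuclei (159 UMIs), whereas the DTHD1-led cluster had 8.30 CPM in 1210 nuclei (24 UMIs). The first was higher in 7 of 7 libraries. GRIN2B did not follow this split, with pooled levels of 111 CPM in the SLC1A2-led and 128 CPM in the DTHD1-led cluster. The SLC1A2-led cluster also had the deeper nuclei, with a median of 3979 UMIs against 1992.5. After thinning, 3.09% and 0.821% of nuclei had a GRIN3A UMI. Astrocyte-like nuclei carried 1.56 GRIN3A UMIs per 100 MSN marker UMIs, D1 MSN-like nuclei 0.0258, PV/Th interneuron-like nuclei 10.51, cholinergic 33.3 and SST/NPY 33.8. The astrocyte value lay between those of MSNs and interneurons, and the part of neuronal RNA in it was not tested.

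GRIN2C and GRIN3B were hardly detected. GRIN2C, known from cerebellar granule cells and from astrocytes, had 4.17 ± 2.99 CPM in PV/Th interneuron-like nuclei from 16 UMIs, with at least 1 UMI in each of the 7 libraries. D1 and D2 MSN-like nuclei had 0.589 ± 0.112 and 0.398 ± 0.123 CPM from 40 and 21 UMIs. Astrocyte-like nuclei had 1 UMI of GRIN2C in 2119 nuclei. SST/NPY and cholinergic interneuron-, eccentric MSN-, neuroblast- and microglia-like nuclei had none, which allows 0.415 CPM in the eccentric class and 2.15 CPM in the small cholinergic class (3 UMIs of the class total, counting error only). GRIN3B, known mainly from motor neurons, had at most 6 UMIs in any class.

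**Figure D2:**
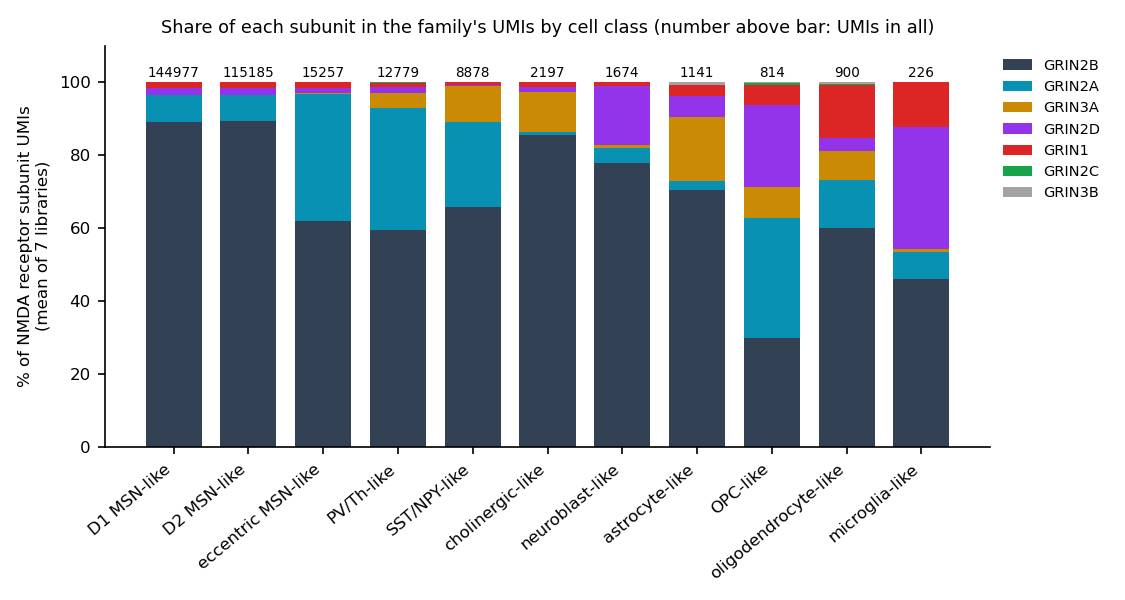
Share of each subunit in the NMDA receptor UMIs of a class (vertical axis, percent, mean of 7 libraries), with 1 stacked bar per class and the number of UMIs above it. GRIN2B fills 88.9% of the D1 MSN-like bar and 29.7% of the OPC-like bar, and GRIN2A 35.02% of the eccentric MSN-like bar.

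The make-up of the family's UMIs differed between the classes. In D1 MSN-like nuclei GRIN2B gave 88.9 ± 1.999% and in D2 it gave 89.3 ± 2.25%, with GRIN2A at 7.40 ± 1.42% and 7.09 ± 1.68% (SD, n = 7). In eccentric MSN-like nuclei these shares were 61.8 ± 2.58% and 35.02 ± 2.80%, and in PV/Th interneuron-like nuclei 59.5 ± 2.81% and 33.4 ± 3.55%. SST/NPY interneuron-like nuclei had 65.6 ± 3.59% GRIN2B, 23.4 ± 2.74% GRIN2A and 9.75 ± 2.34% GRIN3A. Cholinergic interneuron-like nuclei had 85.4 ± 8.98% GRIN2B and 11.0 ± 8.16% GRIN3A, and neuroblast-like nuclei 77.7 ± 7.72% GRIN2B and 16.1 ± 5.40% GRIN2D. OPC-like nuclei had the most even UMI counts, with 33.1 ± 7.81% GRIN2A, 29.7 ± 6.76% GRIN2B and 22.5 ± 5.19% GRIN2D from 814 UMIs in all.

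Ratios to GRIN2B within a class do not depend on how libraries are scaled. Per 100 GRIN2B UMIs, GRIN2A had 120 ± 53.0 UMIs in OPC-like, 56.9 ± 6.95 in eccentric MSN-like and 56.4 ± 8.29 in PV/Th interneuron-like nuclei (SD, n = 7). SST/NPY interneuron-like nuclei had 36.0 ± 5.62, D1 8.35 ± 1.76 and D2 MSN-like nuclei 7.98 ± 2.04. The OPC-like range lay above the eccentric range, the PV/Th range above the SST/NPY range, and the D1 and D2 ranges overlapped. The oligodendrocyte-like value was 22.0 ± 8.68 and the astrocyte-like value 3.79 ± 3.42, the latter from 21 GRIN2A UMIs. OPC-like nuclei held 4.41 GRIN2A UMIs per 100 MSN marker UMIs. The value was lower in D1 (2.07) and D2 MSN-like (2.05) and cholinergic interneuron-like nuclei (1.84). It was higher in eccentric MSN-like (13.04), SST/NPY (84.7) and PV/Th interneuron-like nuclei (88.2). The OPC-like value thus lay within the range of the neuron classes, and the part of neuronal RNA in it was not tested.

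GRIN3A per 100 GRIN2B UMIs was 30.7 ± 15.5 in OPC-like, 26.7 ± 16.03 in astrocyte-like and 13.4 ± 5.31 in oligodendrocyte-like nuclei, with overlapping ranges. Among interneuron-like nuclei it was 15.0 ± 4.16 in SST/NPY, 13.9 ± 11.04 in cholinergic and 6.93 ± 2.13 in PV/Th nuclei. D1 MSN-like nuclei had 0.112 ± 0.0408 and D2 MSN-like nuclei 0.142 ± 0.0498. All PV/Th values lay above all MSN values. GRIN2D per 100 GRIN2B UMIs was 80.1 ± 27.5 in OPC-like and 21.3 ± 8.12 in neuroblast-like nuclei without overlap, 2.90 ± 0.662 in PV/Th interneuron-like, 2.21 ± 0.897 for D1 and 2.02 ± 0.828 for D2 MSN-like nuclei. Microglia-like nuclei had 101.2 ± 82.7 with a range of 8.70 to 240.0 from 69 GRIN2D and 114 GRIN2B UMIs, which set no order against the OPC-like class.

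**Figure D3:**
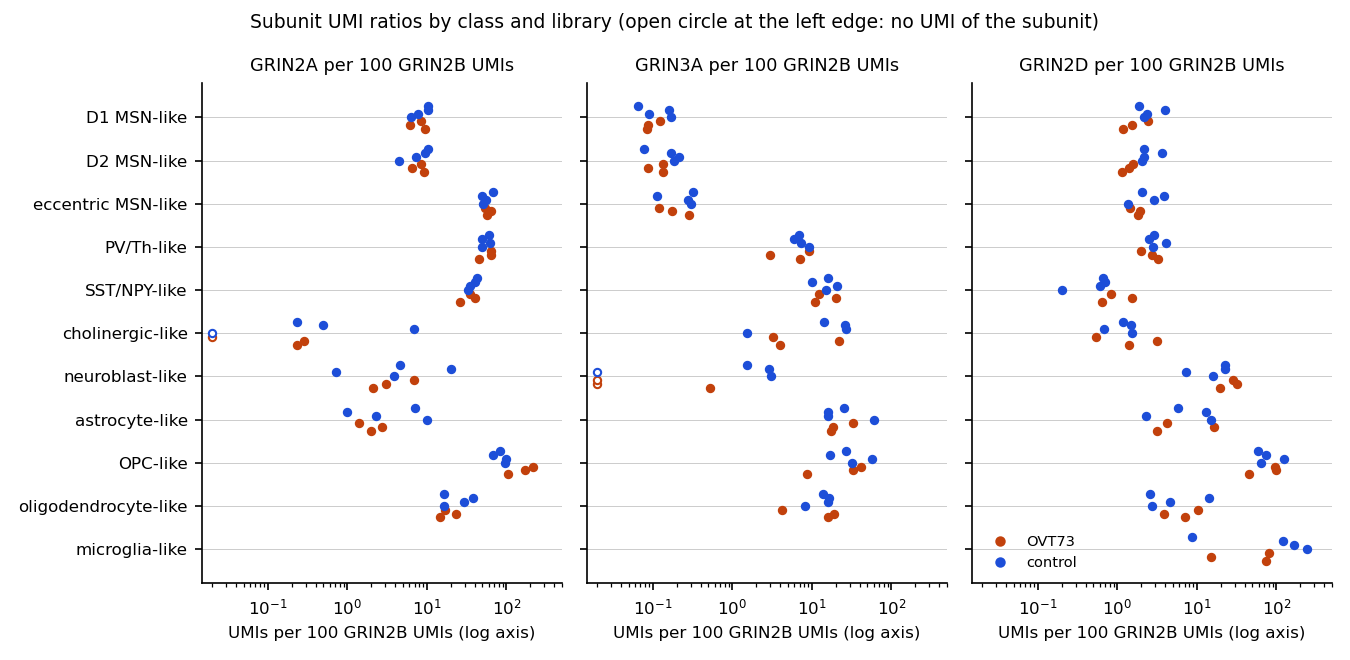
UMIs of GRIN2A, GRIN2D and GRIN3A per 100 GRIN2B UMIs (horizontal axis, logarithmic) in each class (vertical axis), with 1 point per library coloured by group. Classes with fewer than 10 UMIs of both subunits together in any library have no points, and an open circle at the left edge is a library without a UMI of the subunit. GRIN2A is near 8 in D1 and D2 MSN-like, above 44 in eccentric MSN-like and PV/Th interneuron-like and above 68 in OPC-like nuclei.

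Clusters that met no naming rule also carried the subunits, and the one named here was picked after its values were seen. The cluster led by TANC1 (229 nuclei) had 60.3 CPM of the D2 receptor gene DRD2 against 43.0 CPM in D2 MSN-like nuclei. For PENK the values were 7.64 CPM against 50.9 CPM. Pooled over libraries, this cluster had 1729 CPM of GRIN2B and 596 CPM of GRIN2A (317 to 913 over single libraries). Its lowest GRIN2A library was above the highest of the D2 MSN-like class. At a coarser clustering, in which this cluster joined the D2 class, the D2 GRIN2A level was 201 CPM rather than 154 CPM.

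Genes whose level followed a subunit most closely over the 11 classes were found by Pearson correlation of log2(mean CPM + 1) among 11191 genes, as a description without a test, in which the classes share libraries and differ in depth. GRIN1 was followed by CACNG3, MSH4 and SLC12A5 (r = 0.98, 0.97 and 0.97), of which SLC12A5 encodes the neuronal potassium-chloride exporter. For GRIN2A these were SLC6A17, CCDC178 and AP3M2 (0.94, 0.93 and 0.92), and for GRIN2B CLVS1, CCDC158 and TENM2 (0.98, 0.98 and 0.97). GRIN2D was followed by KDM5B, DLGAP4 and ADD2 (0.94, 0.94 and 0.93), and GRIN3A by LHX6, a transcription factor of interneurons from the medial ganglionic eminence, PAX5 and BRCC3 (0.94, 0.94 and 0.93). Among the subunits, r was 0.91 for GRIN1 with GRIN2B, 0.85 for GRIN1 with GRIN2A and 0.09 for GRIN2D with GRIN3A.

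OVT73 and control libraries were then compared in the 9 classes with at least 10 nuclei in every library, to ask whether the subunits were expressed differently in a line without striatal cell loss. Levels in this comparison are CPM after TMM normalization. Each p measures the spread between libraries, which were pools of sheep or single sheep. Of 63 subunit and class pairs, 32 had enough UMIs to be tested, of which 13 were higher and 19 lower in OVT73. None of the 32 passed edgeR's quasi-likelihood test with Benjamini-Hochberg adjustment over all genes of the class (smallest adjusted p = 0.696), against 0.00259% of all genes tested. Before adjustment 2 of the 32 had p under 0.05, against 5.14% of all genes, and DESeq2 called 0 with 2 under 0.05. No tested pair had groups that did not overlap. Over all genes the share without overlap was 5.31% in D1, 6.07% in D2 and 7.69% in eccentric MSN-like, 5.9% in PV/Th interneuron-like, 5.73% in neuroblast-like, 5.39% in astrocyte-like, 7.59% in OPC-like, 6.56% in oligodendrocyte-like and 5.36% in microglia-like nuclei.

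No difference in GRIN2B between the groups was detected in MSNs. In D1 MSN-like nuclei normalized levels were 1627, 2407 and 1868 CPM in OVT73 and 1592, 1695, 1927 and 2051 CPM in control libraries, so that the groups overlapped. The log2 fold change was 0.11 (SE 0.15, 95% interval -0.21 to 0.44) and without OVT73 2 it was -0.06. In D2 MSN-like nuclei the OVT73 libraries had 1766, 2449.9 and 1931 CPM and the controls 1636, 1659, 1907 and 2094 CPM, with a log2 fold change of 0.17 (SE 0.14, interval -0.13 to 0.47). Both intervals include 0. Eccentric MSN-like (0.11, SE 0.14) and PV/Th interneuron-like nuclei (0.03, SE 0.12) had estimates of 0.11 or less.

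GRIN2A had log2 fold changes of -0.07 (SE 0.24) in D1, 0.11 (SE 0.31) in D2 and 0.19 (SE 0.17) in eccentric MSN-like nuclei. In D1 and D2 the OVT73 libraries were close together, at 148 to 158 and 159 to 163 normalized CPM, inside the control spread of 99.4 to 213 and 72.8 to 218. GRIN1 had -0.09 (SE 0.20), -0.05 (SE 0.31) and -0.23 (SE 0.32) in the 3 MSN classes. GRIN3A in PV/Th interneuron-like nuclei had -0.26 (SE 0.27) and in astrocyte-like nuclei 0.12 (SE 0.32).

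**Figure D4:**
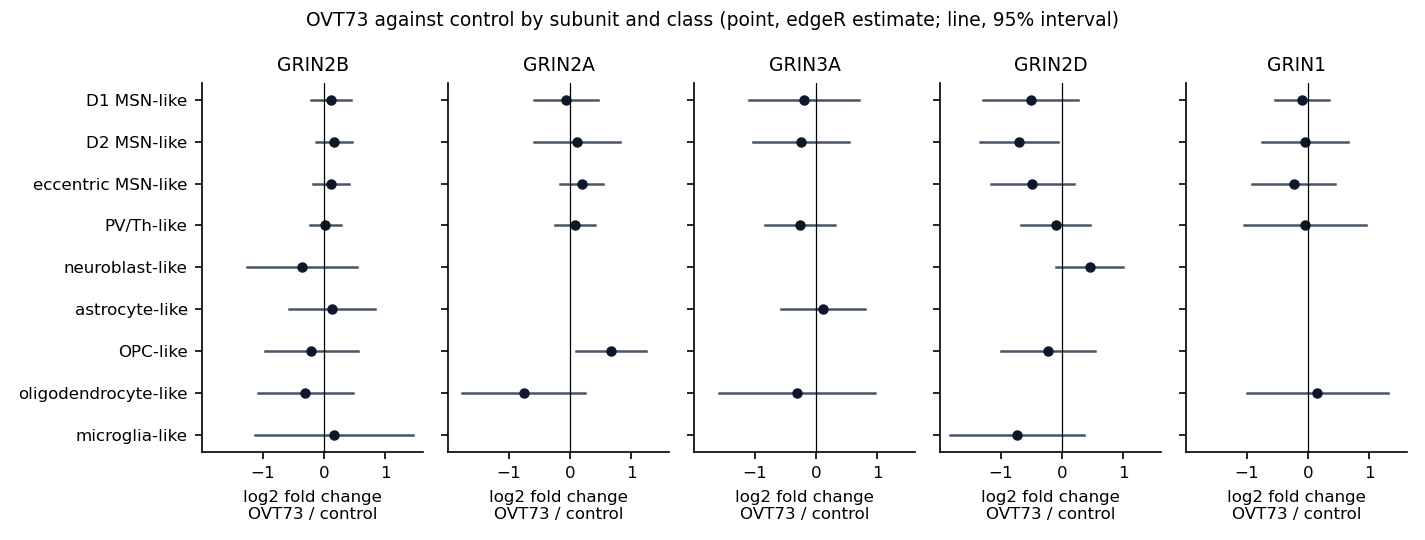
Log2 fold change of OVT73 over control (horizontal axis) for each subunit in each class in which it was tested (vertical axis), with the edgeR estimate as a point and its 95% interval as a line. Most intervals include 0, and GRIN2D in D2 MSN-like (-0.70) and GRIN2A in OPC-like nuclei (0.67) are the exceptions.

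GRIN2D in D2 MSN-like nuclei and GRIN2A in OPC-like nuclei had the smallest p before adjustment. GRIN2D in D2 was 20.3, 34.4 and 30.8 normalized CPM in OVT73 and 33.2, 35.5, 70.2 and 45.3 CPM in control libraries. OVT73 2 lay above control 1, and control 3 was the highest by far. The log2 fold change was -0.70 (SE 0.28; edgeR's quasi-likelihood test, Benjamini-Hochberg adjusted p = 0.872; two-sided exact permutation p = 0.171 for the difference in means). Without control 3 the log2 fold change was -0.43. The values in D1 (-0.51, SE 0.35) and eccentric MSN-like nuclei (-0.48, SE 0.32) were also below 0 without passing, and control 3 was again the highest library in both. Without control 3 both were -0.18, and without OVT73 1 the D1 value was -0.22.

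GRIN2A in OPC-like nuclei was 24.3, 35.3 and 30.1 normalized CPM in OVT73 and 14.3, 12.4, 28.0 and 22.2 CPM in control libraries. The pooled controls 3 and 4 were again above the single-sheep controls, and OVT73 1 fell below control 3. The log2 fold change was 0.67 (SE 0.27; edgeR's quasi-likelihood test, Benjamini-Hochberg adjusted p = 0.696; two-sided exact permutation p = 0.114). GRIN2D in neuroblast-like nuclei stood at 189, 236 and 140.4 normalized CPM in OVT73 and 149.7, 125, 123 and 142 CPM in controls, with a log2 fold change of 0.46 (SE 0.26) and an exact permutation p of 0.0857. Microglia-like GRIN2A, named after its values were seen, was among the 31 pairs with too few UMIs to be tested (14 in all). It had 0.824 to 2.76 normalized CPM in OVT73 and 4.30 to 8.54 CPM in control libraries (two-sided exact permutation p = 0.0571). Of all genes tested in this class 5.36% had groups without overlap. The untested pairs were not counted in this way, so that the separation is not read as a result.

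Subunit ratios were compared between groups for 51 class and ratio pairs by exact permutation of the group labels over libraries (two-sided), which has 35 arrangements and cannot give a p below 0.0286. In 41 pairs every library had a UMI of the subunit, and of these 13 were higher and 28 lower in OVT73. After Benjamini-Hochberg adjustment 0 of the 51 pairs (0%) passed, with a smallest adjusted p of 0.364. A few pairs at the smallest possible p cannot pass an adjustment over 51 pairs, so that this count does not show that the ratios were alike. The groups did not overlap in 4 pairs (7.84%), all at p = 0.0286 by this exact test. In 2 of these, GRIN2C in eccentric MSN-like and astrocyte-like nuclei, the subunit had 0 and 1 UMI, so that the order came from the 0.5 added to each sum and from GRIN2B alone. Among pairs with a UMI in every library 2 did not overlap (4.88%).

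**Figure D5:**
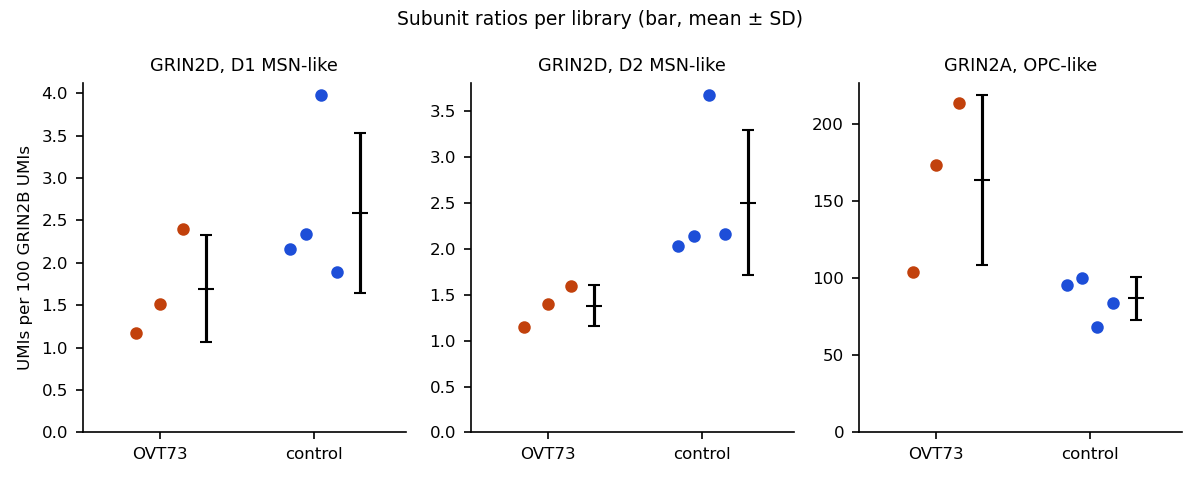
UMIs of a subunit per 100 GRIN2B UMIs (vertical axis, from 0) in OVT73 and control libraries (horizontal axis), with 1 point per library and the mean ± SD of each group. The 3 OVT73 values of GRIN2D in D2 MSN-like nuclei lie below all 4 control values, and those of GRIN2A in OPC-like nuclei above them.

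GRIN2D per 100 GRIN2B UMIs in D2 MSN-like nuclei was 1.15, 1.40 and 1.59 in OVT73 and 2.03, 2.14, 3.68 and 2.16 in control libraries. The groups did not overlap, and control 3 stood apart within its group. By the study's library summary, control 3 had the lowest and OVT73 1 the highest share of reads mapped to the transcriptome. Their antisense shares ran the other way. These libraries also held the highest and the lowest ratio, and whether the ratio follows mapping was not tested. The log2 ratio differed by -0.83 (OVT73 minus control; two-sided exact permutation p = 0.0286, adjusted p = 0.364). In D1 MSN-like nuclei the ratio was 1.17, 1.52 and 2.40 in OVT73 and 2.16, 2.34, 3.97 and 1.89 in controls, where OVT73 3 exceeded 3 of the 4 controls (exact permutation p = 0.200, adjusted 0.844).

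GRIN2A per 100 GRIN2B UMIs in OPC-like nuclei was 104, 174 and 214 in OVT73 and 95.5, 100.0, 68.6 and 83.8 in control libraries. OVT73 1 and control 2 were neighbours, and the other OVT73 libraries were well above. The difference in log2 ratio was 0.86 (two-sided exact permutation p = 0.0286, adjusted p = 0.364), on sums of 16 or more GRIN2A UMIs per library. GRIN2A per 100 GRIN2B UMIs in MSNs gave log2 differences of -0.10 in D1 (7.99 ± 1.68 in OVT73, n = 3, and 8.62 ± 2.03 in control, n = 4), 0.07 in D2 (8.03 ± 1.39 and 7.94 ± 2.65) and 0.08 in eccentric nuclei (58.5 ± 5.76 and 55.7 ± 8.37), all with overlap.

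SST/NPY and cholinergic interneuron-like nuclei were too few for a test across genes, and their ratios overlapped between the groups. GRIN3A per 100 GRIN2B UMIs in SST/NPY nuclei was 14.5 ± 4.82 in OVT73 (SD, n = 3) and 15.4 ± 4.31 in control libraries (SD, n = 4), and GRIN2A 33.6 ± 6.88 and 37.7 ± 4.73.

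Whether the effect of the transgene differed between D1 and D2 MSN-like nuclei was tested on the difference D2 minus D1 of normalized log2 CPM within each library, for the 5 subunits tested in both. None passed after adjustment, which a single subunit at the smallest possible p could not have done. For GRIN2A the difference was 0.08, 0.10 and 0.05 in OVT73 and -0.44, -0.08, -0.11 and 0.03 in control libraries. All OVT73 values lay above all control values (1 of 5 subunits, against 5.37% of the genes tested in both classes), by 0.23 in the mean, with control 1 as the farthest control (two-sided exact permutation p = 0.0571, adjusted p = 0.286). Without control 1 the difference in the mean was 0.13. For GRIN2B, GRIN2D, GRIN1 and GRIN3A the groups overlapped, with differences of 0.06, -0.15, 0.11 and -0.08.

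Scaffold, signalling and co-agonist genes of the receptor were counted as a list of 54 symbols, of which 51 were in the tables as 53 features. In D1 MSN-like nuclei 31 of 50 tested features were higher in OVT73 and 0 passed, with a median log2 fold change of 0.05 against -0.03 over all genes tested. In D2 32 of 49 were higher (median 0.06 against -0.02) and in eccentric MSN-like nuclei 22 of 43 (0.01 against -0.01), again without a call. Groups did not overlap for 2 of 50, 3 of 49 and 3 of 43 features in these classes, beside 5.31%, 6.07% and 7.69% of all genes, so that the counts were near the background. In the other 6 classes 0 features passed either. Groups did not overlap for 5 of 34 features in astrocyte-like nuclei, all higher in OVT73, beside 5.39% of all genes, and for 4 of 43 in OPC-like nuclei, also all higher, beside 7.59%. In the astrocyte-like class the SLC1A2-led cluster made up 43.9, 44.8 and 47.9% of nuclei in OVT73 libraries. In control libraries it made up 48.5, 29.0, 38.4 and 36.7%, and the part of this mix in the astrocyte count was not tested. The astrocyte features, named after their values were seen, were KALRN, LRP8, HOMER1, FYN and SLC7A10, with log2 fold changes of 0.16 to 0.45. Those of OPC-like nuclei, named in the same way, were DLG1, DLG2, SHANK2 and PRKCB (0.09 to 0.31). The counts were 3 of 39 in PV/Th interneuron-like (2 higher), 1 of 27 in neuroblast-like (lower), 2 of 42 in oligodendrocyte-like and 2 of 20 in microglia-like nuclei (all higher).

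By the smallest p, KALRN, a guanine nucleotide exchange factor of dendritic spines, came first in D1 (1385 ± 76.7 normalized CPM in OVT73, n = 3, and 1067 ± 119 in control, n = 4; log2 fold change 0.38) and in D2 (1446 ± 48.0 and 1064 ± 157; 0.44). All OVT73 libraries lay above all controls in both classes (edgeR's quasi-likelihood test, Benjamini-Hochberg adjusted p = 0.940 and 0.872). RASGRF2, a calcium-dependent Ras activator, had log2 fold changes of 0.77 in D1 and 0.80 in D2 with overlapping groups. Next came LIN7A in D1 (0.39) and the postsynaptic scaffold HOMER1 in D2 (0.23), whose groups did not overlap. In eccentric MSN-like nuclei 2 features named CALM2, the gene of the calcium sensor calmodulin, were lower in OVT73 by the estimate (-0.56 for ENSOARG00020017821 and -0.93 for ENSOARG00020014681) and RASGRF1 was at 0.43, none of which passed. Near-identical calmodulin copies can share reads, so that the CALM2 values are uncertain.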

How the data were processed

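Nuclei of frozen anterior striatum were profiled by droplet-based 3′ single-nucleus RNA-seq in 7 libraries. The authors deposited raw UMI counts per gene and barcode, made per the submitters' processing notes with Cell Ranger 7.0.0 and STAR 2.7.2a on the Rambouillet sheep genome, with replicate animals of a library pooled before sequencing and not separated here. The study's mapping shares, in which reads assigned to the transcriptome far exceed exonic reads, show that intronic reads were counted. Groups were read from the prefix of the library titles, replicate numbers only name libraries, and members and lists were chosen with earlier results of these data known.

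Barcodes with 200 to 7500 genes and at most 5% mitochondrial UMIs were kept, and the 4% of each library with the highest doublet score were removed (1358 of 33957, since scrublet itself called 9). Variable genes (3000, without 19 ionotropic glutamate receptor genes) were chosen in scanpy 1.11.5 and reduced to 30 components. The components were corrected for library by the Harmony method, in code written for this report. Nuclei were clustered on a graph of 20 neighbours in igraph 0.11.9 (Leiden resolution 1.0). Each library belongs to 1 group, so that the correction also acts between groups, and its effect on the classes was not tested. A cluster was named where at least 3 listed markers of a class were raised by over 1.0 on the log2 scale above the median over clusters. No rival class was allowed to reach 0.4 of its mean raise. MSN and interneuron classes were not counted as rivals of each other or of the neuroblast class. MSN and interneuron subclasses needed 2 markers raised above the mean of the other neuron clusters, with at least 1 among the 10 leading genes. This rule was set after marker profiles were seen and before groups were compared. The named genes are the 7 members, the 3 genes most correlated with each member over classes (at least 10 CPM in a class), and the 3 genes of the pathway list with the smallest p in each MSN class.

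UMIs were summed per class and library and tested with edgeR 4.0.16 in R 4.3.3 (TMM, filterByExpr, quasi-likelihood, adjusted p under 0.05) and DESeq2 1.42.0, with tests checked on simulated data. Ratios had 0.5 added to each sum. Single values were tested by exact permutation over 35 splits (scipy 1.17.1). Intervals for shares are exact binomial, and floors stand for 3 UMIs, both covering counting error only. No sequences or coordinates are given, because no genome of this build was used here. Results that name certain genes are not reported here.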

Additional observations from a re-analysis of the deposited data

Results flagged for a closer look

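Of 73 groups of 4 control libraries examined, 4 held 1 library whose distance to the next was above Dixon's 95% critical value for 4 samples. Chance flags about 1 in 20 such groups. GRIN2D in D1 MSN-like nuclei stood at 76.6 normalized CPM in control 3, against 34.3, 38.8 and 39.7 CPM in the other controls. GRIN2D per 100 GRIN2B UMIs in D2 MSN-like nuclei was 3.68 in the same library, against 2.03, 2.14 and 2.16. GRIN2A in eccentric MSN-like nuclei was 909 normalized CPM in control 4, against 647, 688 and 691 CPM. GRIN2D in PV/Th interneuron-like nuclei was 73.6 normalized CPM in control 2, against 46.0, 47.9 and 49.4 CPM.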

How the results depend on the processing

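No member passed edgeR's test with Benjamini-Hochberg adjustment under any alternative: RLE size factors, library totals alone, no filter on low counts (57 tests, smallest adjusted p = 0.325), DESeq2 (32 tests, smallest 0.850), a coarser clustering at resolution 0.5, doublets kept, or any 1 library left out. The coarser clustering named no PV/Th class, so that it gave no value there, and moved GRIN2A in D2 MSN-like nuclei to 201 CPM, with the TANC1-led cluster absorbed. GRIN2D in D2 (log2 fold change -0.87 to -0.43) and GRIN2A in OPC-like nuclei (0.50 to 0.86) kept their sign without any 1 library. No paired analysis was possible because the labels give no replicate numbers that groups share. Classes with few nuclei, low glial counts and 7 libraries, some of single and some of pooled sheep, limit what could be detected.

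Among 168 results, 44 changed sign without 1 library, none of which had passed a test, and the cause was not tested. Given as the lowest to the highest value with each library left out in turn, with classes named without "-like", the values were as follows. The GRIN1 log2 fold change was -0.22 to 0.078 in D1, -0.25 to 0.17 in D2, -0.35 to 0.24 in PV/Th and -0.23 to 0.64 in oligodendrocyte. The GRIN2A log2 fold change was -0.24 to 0.10 in D1, -0.12 to 0.36 in D2, -0.079 to 0.27 in PV/Th and -0.0016 to 0.34 in eccentric. The GRIN2B log2 fold change was -0.055 to 0.24 in D1, -0.43 to 0.12 in OPC, -0.053 to 0.093 in PV/Th, -0.13 to 0.27 in astrocyte, -0.087 to 0.84 in microglia, -0.60 to 0.061 in neuroblast and -0.52 to 0.072 in oligodendrocyte. The GRIN2D log2 fold change was -0.53 to 0.093 in OPC and -0.23 to 0.087 in PV/Th. The GRIN3A log2 fold change was -0.39 to 0.017 in D1, -0.49 to 0.052 in PV/Th, -0.19 to 0.30 in astrocyte and -0.59 to 0.038 in oligodendrocyte. The GRIN1 log2 ratio to GRIN2B was -0.45 to 0.15 in D1, -0.36 to 0.21 in D2, -0.19 to 0.53 in OPC, -0.45 to 0.78 in PV/Th and -0.53 to 0.056 in eccentric. The GRIN2A log2 ratio to GRIN2B was -0.25 to 0.079 in D1, -0.18 to 0.23 in D2, -0.044 to 0.22 in PV/Th, -0.0011 to 0.17 in eccentric and -1.03 to 0.40 in neuroblast. The GRIN2C log2 ratio to GRIN2B was -0.24 to 0.12 in D1 and -0.25 to 0.19 in D2. The GRIN2D log2 ratio to GRIN2B was -0.23 to 0.32 in OPC, -1.13 to 0.060 in astrocyte and -0.39 to 0.63 in cholinergic. The GRIN3A log2 ratio to GRIN2B was -0.82 to 0.27 in OPC, -0.68 to 0.13 in PV/Th, -0.35 to 0.075 in SST/NPY, -0.50 to 0.21 in astrocyte and -0.61 to 0.37 in oligodendrocyte. The D2 minus D1 difference was -0.044 to 0.22 for GRIN1, -0.28 to 0.027 for GRIN2D and -0.23 to 0.11 for GRIN3A.

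Other alternatives reversed 14 results. With library totals alone GRIN2B in PV/Th was -0.042, and with no filter GRIN1 there was 0.026. The SLC1A2-led cluster alone gave -0.059 for GRIN3A in astrocytes and the DTHD1-led cluster alone -0.0069 for GRIN2B, both chosen after seeing the data. For the OPC ratio of GRIN2D, resolution 0.5 gave 0.010 and doublets kept 0.020. Thinning each nucleus to 1000 UMIs gave log2 ratios of 0.31 for GRIN3A and -0.88 for GRIN2C in D2, 0.35 for GRIN2D in eccentric, 0.20 for GRIN3A in PV/Th, -0.44 and 0.11 for GRIN1 in SST/NPY and cholinergic, 0.021 for GRIN3A and 0.32 for GRIN2D in OPC, and 0.56 for GRIN2A and 0.076 for GRIN3A in oligodendrocyte nuclei.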

Other observations

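Clusters without a name carried 25.5% of all GRIN3A UMIs. The cluster led by EPHA3 (243 nuclei), with 352 CPM of the glutamatergic gene SLC17A6, had 952 CPM of GRIN2B and 245 CPM of GRIN2A. The cluster led by FSHR (778 nuclei), of low depth, had 1913 CPM of GRIN2B and 168 CPM of GRIN2A.

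GRIN2B was also counted per nucleus, in nuclei with at least 5000 UMIs. In D1 MSN-like nuclei the median was 18.3 UMIs per 10000, with 12.03 at the lowest and 26.0 at the highest decile. Eccentric MSN-like nuclei had a median of 12.7 and SST/NPY interneuron-like nuclei of 26.0. At this depth GRIN3A had a UMI in 95.2% of 104 SST/NPY interneuron-like and 12.8% of 368 astrocyte-like nuclei, against 0.412% of 485 oligodendrocyte-like nuclei.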
